A study of Mus musculus with 6 samples.

Results

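The 43 genes described here encode proteins of lysosomes or of their control. Their products are cathepsins and other proteases, enzymes and cofactors that handle lipids, enzymes that cut sugar chains, membrane proteins, and 2 regulators, Grn and Tfeb. The genes were chosen by name, and all 43 were found, once each, among the 16199 gene symbols of the deposited expression table. RNA was sequenced from mouse myocardium infarcted by tying off the left anterior descending coronary branch and taken at day 7. There were 3 wild-type libraries and 3 labelled ITIH5 knockdown, and every library came from infarcted tissue. The study asked whether ITIH5, a secreted protein of the inter-alpha-trypsin inhibitor family, acts on scarring after infarction through the immune response. Strain, age, the way the knockdown was made and the cells it reached were not given in the sources used here. No label ties the 3 libraries of either group to separate mice, and the p-values therefore cover only library-to-library spread, which may be technical.

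Itih5 itself did not have a lower level in the libraries labelled knockdown. Its values, on a scale close to TPM (a length-corrected share of reads), were 9.73, 13.1 and 17.2 in the wild-type libraries, against 18.4, 10.5 and 19.96 in those labelled knockdown. The groups overlapped, with means of 13.3 ± 3.75 and 16.3 ± 5.06 (SD, n = 3 each). On the log2 scale the labelled knockdown minus the wild type came to 0.26 (limma adjusted p = 0.645, SE 0.27, 95% interval -0.39 to 0.90), or 0.15 without replicate 1 of the libraries labelled knockdown. By exact permutation, two-sided, p was 0.4, and 0.1 is the smallest value that 3 against 3 can give. Every direction below is therefore a direction by label.

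Lysosomes are acidic compartments in which hydrolases break down proteins, lipids and sugar chains taken up from outside the cell or delivered by autophagy. Most of these enzymes are made in the endoplasmic reticulum, tagged with mannose 6-phosphate and sorted to the lysosome, whose membrane is lined by heavily glycosylated proteins such as LAMP1 and LAMP2. Macrophages, which clear dead muscle from an infarct, are rich in lysosomes. Many lysosomal genes carry E-boxes near their start, and the transcription factor TFEB is known to act through a longer form of this motif.

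The promoters are shown because the motif was found more often in the members' windows than in those of all genes, though most members' windows do not hold it. RefSeq promoter windows (build GRCm38.p6, 250 bases before to 50 after the start) were matched for 38 of the 43 members, and Asah1, Npc1, Ctsb, Galns and Ctsh had no entry. The palindrome CACGTG was found in the windows of 13 of the 38 members (34.2%) and of 2187 of 27025 genes (8.09%). The longer palindrome TCACGTGA, which contains it, was found in 5 members (13.2%) and in 304 genes (1.12%). Those 27025 are all genes with a RefSeq window, expressed here or not, while all members were expressed. The share among expressed genes alone was not taken. The sequences below run 5′ to 3′ on the gene's strand and were picked after they had been seen. In the first 3 the capitals mark CACGTG, and none of their bases lies in an exon annotated by GENCODE. The Lamp1 stretch (chr8:13159097-13159156, plus strand) holds 4 copies. The Glb1 stretch is at chr9:114401003-114401062 on the plus strand, and the Lgmn stretch at chr12:102439109-102439168 on the minus strand, measured from the more downstream of its RefSeq starts and inside the Lgmn gene model.
Lamp1: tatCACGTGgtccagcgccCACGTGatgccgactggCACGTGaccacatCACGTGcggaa
Glb1: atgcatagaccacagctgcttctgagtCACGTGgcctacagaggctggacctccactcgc
Lgmn: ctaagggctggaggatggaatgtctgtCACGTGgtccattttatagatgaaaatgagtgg
In the next 4 the capitals mark TCACGTGA. The Ctsd site is at chr7:142387911-142387934 on the minus strand, the Gla sites at chrX:134601185-134601208 and chrX:134601218-134601241 on the minus strand, and the Mcoln1 site at chr8:3500465-3500488 on the plus strand. Unlike the first 3 stretches, the Ctsd, Gla and Mcoln1 sites lie wholly in exons annotated by GENCODE. The Ctsd and Mcoln1 sites lie inside the model of their own gene, and the Gla sites outside that of Gla.
Ctsd: cccgcgtcTCACGTGAcccgttga
Gla, nearer the start: gatctcggTCACGTGAgcaactct
Gla, farther from the start: gcgattgaTCACGTGAgcatctac
Mcoln1: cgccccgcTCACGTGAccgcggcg

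**Figure D1:**
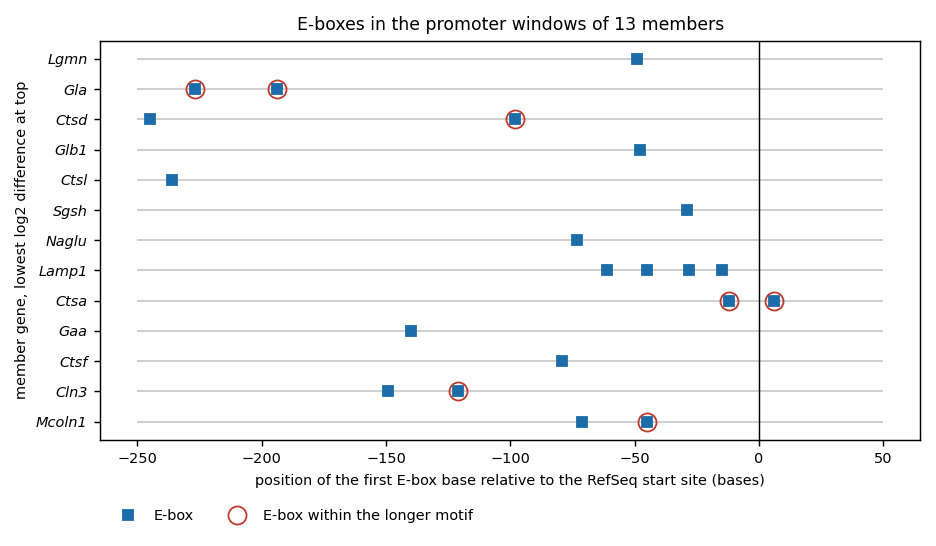
Position of each CACGTG (squares) in the promoter windows of the 13 members that hold one, in bases from the RefSeq start site, with circles where it is part of TCACGTGA. Members are ordered from the lowest log2 difference (Lgmn, -0.73) to the highest (Mcoln1, 0.26), and Lamp1 has 4 copies.

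Members with and without the motif had medians close to each other. The median log2 difference was -0.39 for the 13 members with CACGTG and -0.35 for the 25 without. Of the 13, 3 were lower at an unadjusted p under 0.05, and of the 25, 10 were (6.55% of all genes). Lgmn (-0.73) and Mcoln1 (0.26), the members with the lowest and the highest difference, both hold it. A match is a description of these letters and shows no binding.

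Column sums of the table ran from 901563 to 1159657, and the read depth is unknown. The library labelled knockdown replicate 1 stood apart. Mitochondrially encoded genes took 32.6% of its column, against 10.9% to 13.8% in wild type, 14.8% in labelled knockdown replicate 2 and 20.2% in replicate 3. The summed level of 10 heart muscle markers was 18289 in it and between 4977 and 7868 in the other 5 libraries. Medians of lists, and the differences of members whose values are given by library, are therefore also stated without it.

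The members were expressed over a wide range. Ctsd had the highest mean over the 6 libraries (3191), followed by Psap (2280), Ctss (1824) and Ctsb (1467), and Sgsh the lowest (7.98). Those 4 highest genes made up between 49.8% and 58.6% of the members' summed level in every library. That sum was 21166, 17543 and 16675 in the wild-type libraries, against 9863, 16098 and 13750 in those labelled knockdown replicates 1 to 3. It was lower in each library labelled knockdown than in any wild-type library, and lowest in replicate 1. As a share of the column it took 2.17%, 1.87% and 1.85% of the wild-type libraries, against 0.850%, 1.67% and 1.38% of those labelled knockdown. In whole tissue, fewer cells of a type and less RNA per cell cannot be told apart.

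**Figure D2:**
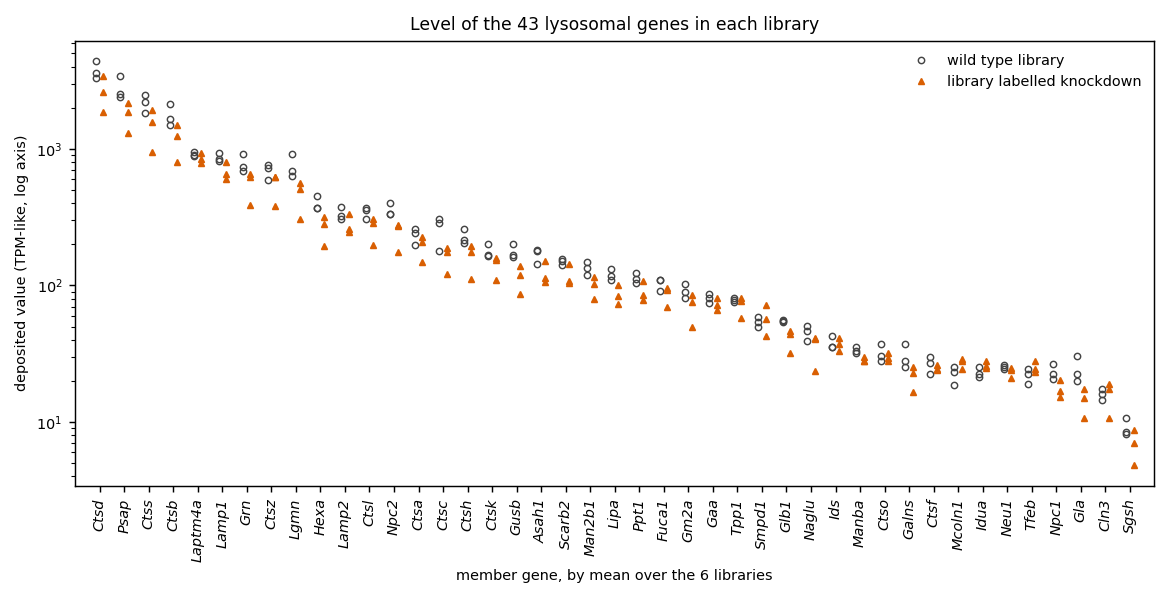
Deposited value (log axis) of the 43 members in each library, ordered by mean level, with open circles for wild type and triangles for the libraries labelled knockdown. Mean levels run from 3191 (Ctsd) to 7.98 (Sgsh), and for 39 of 43 members the triangles are lower in the fitted difference.

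Most of the 43 members had lower levels in the libraries labelled knockdown, but no member passed the adjusted test. The fitted difference was below 0 for 39 of 43, where 49.2% of all 14025 tested genes had one below 0. The median log2 difference of the members was -0.39, with a range from -0.73 (Lgmn) to 0.26 (Mcoln1), and that of all tested genes was 0.005. By limma with Benjamini-Hochberg adjustment over all tested genes, 0 of 43 members and 0% of all genes passed 0.05, and the members' adjusted p-values ran from 0.296 to 0.938. At an unadjusted p under 0.05, 17 members were lower (6.55% of all genes) and 0 were higher (8.29% of all genes). The values of 17 members were lower without overlap between the groups (9.88% of all genes), and those of 0 members were higher without overlap (12.6% of all genes). Among all genes at that unadjusted p, 44.2% of calls were lower. With each library rescaled to an equal sum this share was 75.3%, the median of all genes was -0.13 and that of the members -0.52. After that rescaling 18 members and 1398 of 14087 genes were lower at that p. Both criteria, that unadjusted p and no overlap, held for 13 members in the fit reported. Over all genes they can have held together for at most 6.55%, the share lower at that p. In 22 members the difference was lower but the groups overlapped.

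The lowest values gathered in 1 library. Of the 43 members, 34 had their lowest value in the library labelled knockdown replicate 1 and 28 had their highest in wild-type replicate 1. The median ratio to the wild-type mean was 0.617, 0.897 and 0.800 in the libraries labelled knockdown replicates 1 to 3. Without replicate 1 of the libraries labelled knockdown, 38 members still had a difference below 0, the median was -0.22, and 7 (Lgmn, Lipa, Npc2, Gla, Glb1, Hexa and Gusb) were lower at an unadjusted p under 0.05. Without wild-type replicate 1 that count was 3, and the median was -0.31. The whole table also lost calls: 919 of 14025 genes were lower at that p in the fit reported. That count was 546 of 13995 without labelled knockdown replicate 1 and 334 of 14049 without wild-type replicate 1. Gla, Gusb and Lipa were lower at that p under all 16 alternatives tried.

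**Figure D3:**
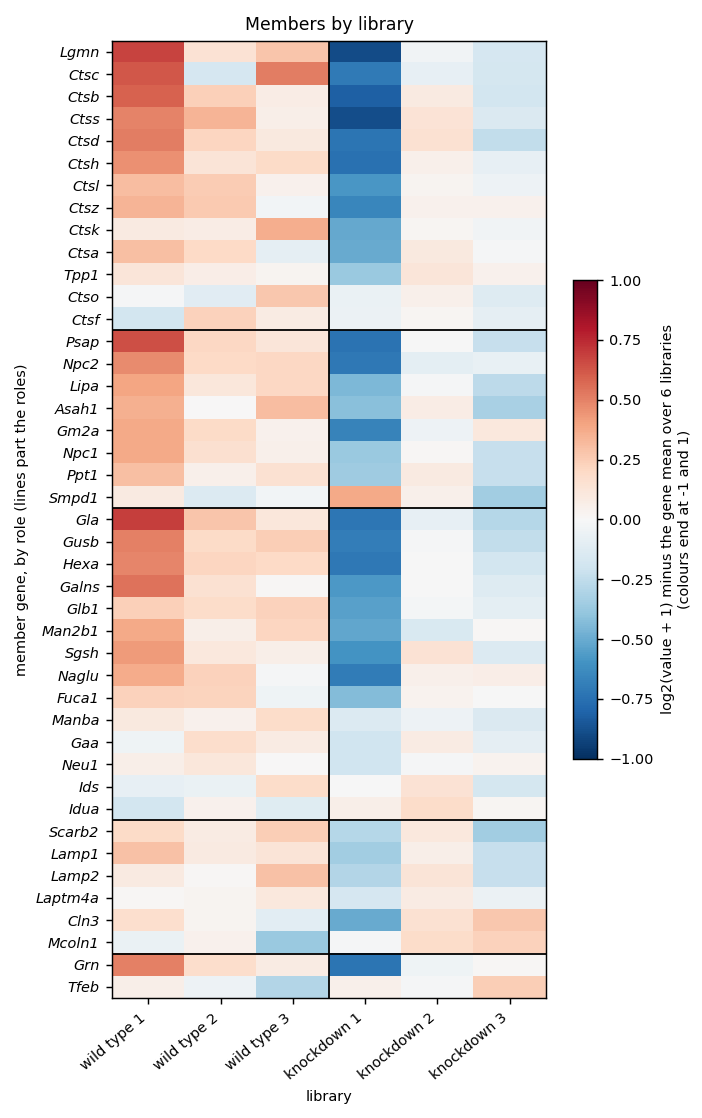
log2(value + 1) of each member in each library, less the average of that gene over all 6 (colour scale from -1 to 1), with lines between the roles and between the groups. The column of the library labelled knockdown replicate 1 holds the lowest value of 34 members, and that of wild-type replicate 1 the highest of 28.

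**Figure D4:**
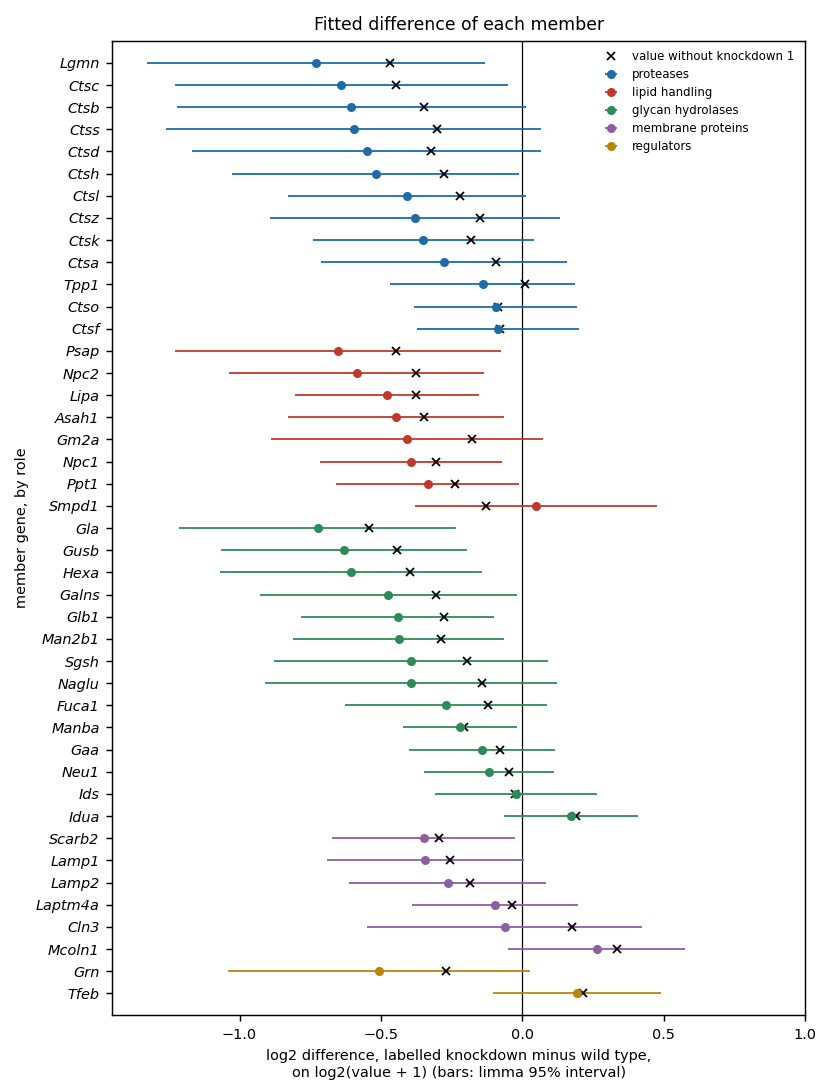
Fitted log2 difference of each member, labelled knockdown minus wild type (points, coloured by role), with limma's 95% interval (bars) and the value without the library labelled knockdown replicate 1 (crosses). Points lie below 0 for 39 of 43 members, and 41 of 43 lie to the left of their crosses, all but Smpd1 and Ids.

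All 13 proteases had a lower mean in the libraries labelled knockdown, with a median log2 difference of -0.41. Without replicate 1 of those libraries 12 of 13 did, with a median of -0.22. At an unadjusted p under 0.05, 3 were lower (6.55% of all genes), and 4 were lower without overlap (9.88% of all genes). Lgmn, a protease that cuts after asparagine and helps to activate cathepsins, was at 915, 632 and 693 in the wild-type libraries, against 308, 559.7 and 508 in those labelled knockdown. These did not overlap, and the log2 difference was -0.73 (SE 0.25, limma adjusted p = 0.302), or -0.47 without replicate 1 of the libraries labelled knockdown. Ctsc, which activates serine proteases of immune cells, was at 307, 177 and 284 against 122, 189 and 177. The groups overlapped, since wild-type replicate 2 was as low as the libraries labelled knockdown, and the difference was -0.64 (SE 0.25, limma adjusted p = 0.317). Ctsh, an aminopeptidase, was at 257, 205 and 214 against 111, 194 and 177, without overlap, a difference of -0.52 (SE 0.22, limma adjusted p = 0.331). Without replicate 1 the difference was -0.45 for Ctsc and -0.28 for Ctsh, and neither was then under the unadjusted threshold.

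The most abundant cathepsins showed the same order of groups with overlap. Ctsd, the main aspartic protease of lysosomes, was at 4400.1, 3572 and 3297 in the wild-type libraries, against 1858, 3422 and 2596 in those labelled knockdown. Replicate 2 of the latter lay above wild-type replicate 3, and the difference was -0.55 (SE 0.26, limma adjusted p = 0.361), or -0.32 without replicate 1. Ctsb, a cysteine protease, was at 2119, 1661 and 1483 against 799, 1501 and 1238, which overlapped, a difference of -0.60 (SE 0.26, limma adjusted p = 0.34). Ctss, a cysteine protease of antigen-presenting cells, was at 2463, 2214 and 1819 against 943, 1927 and 1581, which overlapped (difference -0.60, SE 0.28). Without replicate 1 the difference was -0.35 for Ctsb and -0.30 for Ctss. In each of these 3 genes the library labelled knockdown replicate 1 was the lowest of the 6.

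Ctsl and Ctsk, cysteine proteases of which Ctsk is known for cutting collagen, were lower without overlap but missed the unadjusted threshold. Ctsl was at 371, 358 and 309 against 199, 304 and 288, a difference of -0.41 (SE 0.18, limma adjusted p = 0.342), or -0.22 without replicate 1 of the libraries labelled knockdown. Ctsk was at 167, 165 and 203 against 110.0, 159 and 154, a difference of -0.35 (SE 0.17, limma adjusted p = 0.359), or -0.18 without it. In both genes the highest library labelled knockdown lay close under the lowest wild-type library. The differences of Ctsz (-0.38), Ctsa (-0.28), Tpp1 (-0.14), Ctso (-0.09) and Ctsf (-0.09) came with overlapping groups, and those of Tpp1, Ctso and Ctsf changed sign under at least 1 alternative.

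Of the 8 members that handle lipids, 7 had a lower mean, with a median of -0.43. At an unadjusted p under 0.05, 6 were lower (6.55% of all genes), and 4 were lower without overlap (9.88% of all genes). Without replicate 1 of the libraries labelled knockdown 8 of 8 had a lower mean, with a median of -0.33, and Lipa and Npc2 were lower at that p. Lipa, the acid lipase that frees cholesterol and fatty acids, was at 133, 109 and 117 in the wild-type libraries, against 73.7, 100.2 and 83.8 in those labelled knockdown. All 3 of the latter lay under all 3 wild-type libraries, and the difference was -0.48 (SE 0.14, limma adjusted p = 0.296), or -0.37 without replicate 1. Npc2 and Npc1 pass the freed cholesterol out of the lysosome, Npc2 as the soluble and Npc1 as the membrane protein. Npc2 was at 402, 332 and 334 against 176, 271 and 275, without overlap (difference -0.59, SE 0.19, limma adjusted p = 0.3). Npc1 was at 26.4, 22.6 and 20.8 against 15.3, 20.2 and 16.96, also without overlap (difference -0.39, SE 0.14, limma adjusted p = 0.302). Without replicate 1 the differences were -0.38 for Npc2 and -0.31 for Npc1.

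Psap, the precursor of the saposins that present sphingolipids to their hydrolases, was at 3418, 2531 and 2379 against 1314, 2176 and 1860.2. The groups did not overlap, and the difference was -0.65 (SE 0.25, limma adjusted p = 0.313), or -0.45 without replicate 1 of the libraries labelled knockdown. Asah1, acid ceramidase, was at 183, 143 and 177 against 106, 150.3 and 114, with overlap (difference -0.45, SE 0.16, limma adjusted p = 0.308), or -0.35 without it. Ppt1, which removes palmitate from proteins, and Gm2a, the cofactor for ganglioside breakdown, had differences of -0.33 and -0.41 with overlapping groups. Smpd1, acid sphingomyelinase, was the member of this role without a lower mean: it was at 58.7, 49.8 and 53.97 against 71.6, 56.8 and 42.9. Its libraries labelled knockdown held both the highest and the lowest of the 6 values, and its difference was 0.05, which changed sign under 4 of the 16 alternatives, among them without replicate 1 (-0.13).

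Of the 14 enzymes that cut sugar chains, 13 had a lower mean, with a median of -0.39. At an unadjusted p under 0.05, 7 were lower (6.55% of all genes), and 7 were lower without overlap (9.88% of all genes). Without replicate 1 of the libraries labelled knockdown 13 of 14 had a lower mean, with a median of -0.20, and Gla, Gusb, Hexa and Glb1 were lower at that p. Gla, which removes terminal alpha-galactose from glycolipids, was at 30.4, 22.6 and 19.99 in the wild-type libraries, against 10.8, 17.4 and 14.96 in those labelled knockdown. They did not overlap, and the difference was -0.72 (SE 0.21, limma adjusted p = 0.296), or -0.54 without replicate 1. Gusb, beta-glucuronidase, was at 200.4, 161 and 167 against 86.8, 139.7 and 119, without overlap (difference -0.63, SE 0.18, limma adjusted p = 0.296). Hexa, the alpha subunit of beta-hexosaminidase, was at 449, 371 and 368 against 194, 318 and 281, without overlap (difference -0.61, SE 0.20, limma adjusted p = 0.3). Without replicate 1 the differences were -0.44 for Gusb and -0.40 for Hexa.

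Glb1, lysosomal beta-galactosidase, had a narrow range in wild type, at 55.7, 53.6 and 55.3, and was at 31.9, 46.2 and 43.9 in the libraries labelled knockdown. The difference was -0.44 (SE 0.15, limma adjusted p = 0.3), or -0.28 without replicate 1. Man2b1, an alpha-mannosidase, was at 149.5, 119 and 133 against 79.6, 103 and 116, without overlap (difference -0.44, SE 0.16, limma adjusted p = 0.308), or -0.29 without it. Manba, a beta-mannosidase, was one of the members that moved little when replicate 1 was left out: it was at 33.2, 31.9 and 35.3 against 28.02, 29.8 and 27.9, a difference of -0.22 (-0.21 without it). Galns was at -0.47 without overlap. Sgsh (-0.39), Naglu (-0.39), Fuca1 (-0.27), Gaa (-0.14), Neu1 (-0.12) and Ids (-0.02) had overlapping groups, and the difference of Ids changed sign under some alternatives. Idua, which acts on glycosaminoglycans, had the higher mean in the libraries labelled knockdown, at 21.5, 25.4 and 22.5 against 25.5, 27.96 and 24.9, with overlap (difference 0.17, or 0.19 without replicate 1).

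The 6 membrane proteins had a median log2 difference of -0.18, or -0.11 without replicate 1 of the libraries labelled knockdown. A lower mean was found for 5. At an unadjusted p under 0.05, 1 (Scarb2) was lower (6.55% of all genes), and 1 (Lamp1) was lower without overlap (9.88% of all genes). With 6 genes, counts of 1 are near the background. Scarb2, the receptor that carries glucocerebrosidase to the lysosome, was at 151, 140.1 and 157 in the wild-type libraries, against 109, 143 and 104 in those labelled knockdown, with overlap (difference -0.35, SE 0.14, limma adjusted p = 0.318). Lamp1 was at 939.7, 815 and 841 against 603, 801 and 655, without overlap (difference -0.34, SE 0.15, limma adjusted p = 0.34). Lamp2 was at 324, 306 and 373 against 248, 333 and 258, with overlap (difference -0.26, SE 0.15, limma adjusted p = 0.407). Without replicate 1 the differences were -0.29 for Scarb2, -0.25 for Lamp1 and -0.18 for Lamp2, and Scarb2 was then not under the unadjusted threshold. In Scarb2 and Lamp2, replicate 2 of the libraries labelled knockdown lay within the wild-type range. Laptm4a was at 884, 896 and 947 against 783, 929.6 and 844 (difference -0.10, SE 0.12, limma adjusted p = 0.71, or -0.04 without replicate 1), and Cln3 had a difference of -0.06 that changed sign under some alternatives. Mcoln1, the calcium channel of the lysosomal membrane, had the highest difference of all members: it was at 23.4, 25.3 and 18.8 against 24.3, 27.99 and 28.9, with overlap. Its difference was 0.26 (SE 0.13, limma adjusted p = 0.376), or 0.34 without replicate 1.

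The 2 regulators differed in sign. Grn, progranulin, a secreted protein that is also cut into granulins in lysosomes, was at 917, 731 and 686 in the wild-type libraries, against 389.9, 627 and 653 in those labelled knockdown. They did not overlap, and the difference was -0.51 (SE 0.23, limma adjusted p = 0.348), or -0.27 without replicate 1. Tfeb was at 24.4, 22.5 and 18.8 against 24.3, 23.1 and 27.9, with overlap (difference 0.19, SE 0.13, limma adjusted p = 0.465), or 0.21 without it. The transcript level of Tfeb says nothing of where its protein is, which is how the factor is known to be regulated.

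Of 131 other tested genes of the lysosome and autophagy, 98 had a lower mean, 18 were lower and 4 higher at an unadjusted p under 0.05 (6.55% and 8.29% of all genes), and the median was -0.13. Without replicate 1 of the libraries labelled knockdown 92 had a lower mean, with a median of -0.07. Other hydrolases were nearest to the members: 25 of 28 had a lower mean and 8 were lower at that p, with a median of -0.26, or -0.16 without replicate 1. Siae, which removes acetyl groups from sialic acids, was at 10.8, 10.4 and 12.7 in the wild-type libraries, against 8.26, 9.62 and 7.98 in those labelled knockdown, a difference of -0.35 without overlap. Of 25 other membrane proteins 20 had a lower mean (median -0.17, or -0.12 without replicate 1), among them Laptm5 (-0.74), Slc15a3 (-0.65) and Tmem192 (-0.30).

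Of 19 subunits of the proton pump that acidifies lysosomes, 14 had a lower mean (median -0.15, or -0.06 without replicate 1). At an unadjusted p under 0.05, 2 were lower and 2 higher, where 6.55% and 8.29% of all genes were, so these counts are near the background. Atp6v1a was at -0.54, while Atp6v1g2 was at 0.56 and Atp6v0e2 at 0.44. Of 20 genes that sort proteins to the lysosome 16 had a lower mean (median -0.14, or -0.08 without replicate 1), with Vps35 at -0.35, Ap1b1 at -0.34 and Gga3 at 0.28. Of 16 genes of transcriptional and nutrient control 10 had a lower mean (median -0.05, also without replicate 1). In that list Zkscan3, a zinc finger protein described as a repressor of lysosomal genes, was at 27.3, 33.7 and 23.98 in the wild-type libraries, against 43.9, 47.3 and 48.9 in those labelled knockdown. Those values did not overlap, and the difference was 0.71 (SE 0.13, limma adjusted p = 0.296). Tfec was at -0.66 and Flcn at 0.31. The 4 tested cathepsin inhibitors had a median of -0.14, or -0.05 without replicate 1, with Cstb at -0.53, Cst6 at 0.22 and Cst7 at -0.30. Low means over the 6 libraries were found for Cst6 (3.12), Cst7 (1.63), Tfec (4.71), Atp6v1g2 (6.74) and Atp6v0e2 (4.94). The table's low values are spaced by 0.889 to 1.163 depending on the library, so rounding limits the precision of the differences of these genes. Of 19 autophagy genes 11 had a lower mean and 0 passed the unadjusted p in either direction (median -0.03, also without replicate 1), with Atg16l1 at 0.20, Ulk1 at 0.18 and Atg12 at -0.18.

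Macrophage markers had lower levels in the same libraries as the members. All 14 of them had a lower mean in the libraries labelled knockdown, and 6 were lower at an unadjusted p under 0.05 (6.55% of all genes). The median of the 14 was -0.55, or -0.27 without replicate 1. Their summed level was between 8991 and 11957 in wild type, with 4243 to 8433 in those labelled knockdown, and none was at 0. The median ratio to the wild-type mean of these markers was 0.465, 0.823 and 0.817 in replicates 1 to 3, beside 0.617, 0.897 and 0.800 for the 43 members. All 10 heart muscle markers had a higher mean (median 0.65, or 0.24 without replicate 1). Their sum was between 4977 and 5552 in the wild-type libraries, against 18289, 7868 and 5114 in those labelled knockdown. When the score of these markers was added to the fit, 3 members were lower at an unadjusted p under 0.05, as were 354 of all 14025 genes. Of 8 fibroblast markers 5 had a lower mean (median -0.19, or -0.05 without replicate 1), and their sums overlapped, from 18390 to 21533 and from 13060 to 20409. The 5 tested neutrophil markers all had a lower mean (median -0.62), with sums of 35.2 to 120 and 28.4 to 70.9. Without replicate 1, 3 of 5 did, with a median of -0.19. The median was -1.51 for B cell markers (-1.26 without replicate 1) and 0.39 for endothelial markers (0.13 without it). For T cell markers it was -0.14, and 0.13 without replicate 1, so its direction turned. Mesothelial markers had a median of -1.27 (-0.39 without replicate 1) and adipocyte markers of -3.05 (-2.01 without it). In both lists the library labelled knockdown replicate 3 had the highest sum of the 6, 147 and 1443, and replicates 1 and 2 the lowest. The adipocyte markers Plin1, Cidec and Lep were listed at 0 in at least 1 library. The part of these cell types in the members' differences was not tested.

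**Figure D5:**
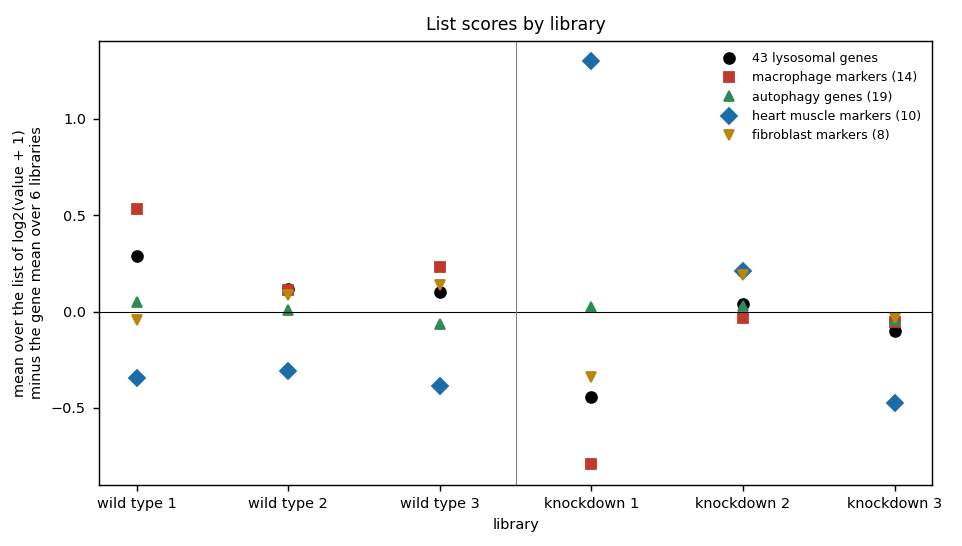
Score of 5 gene lists in each library: the mean over the list of log2(value + 1) less the average of each gene over all 6. In the library labelled knockdown replicate 1 the members (-0.45) and the macrophage markers (-0.79) had their lowest scores and the heart muscle markers their highest (1.30), while the autophagy genes stayed between -0.07 and 0.05 in all 6.

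Reads in exons that a member shares with another gene may have been counted for either. On opposite strands they could be told apart only by strand, whose use in counting is not known, and on the same strand not by strand at all. GENCODE gives 14 members exons that overlap another gene. The largest shares of a member's exonic bases were 34.4% for Ctsd (Gm49369, same strand), 26.8% for Ctsl (Gm47123, opposite strand) and 21.6% for Sgsh (Card14, opposite strand). Shares for Ctsb (Fdft1) and Hexa (Tmem202) were 12.8% each.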

How the data were processed

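RNA was measured in 6 libraries of infarcted mouse myocardium, 3 per group. The labels' protocols describe poly(A) enrichment and name 2 library kits without tying either to a library. The authors deposited 1 table, in which 16205 rows carry a symbol and 6 values. As deposited by the authors, each value is an adjusted score on a scale close to TPM, a length-corrected share of reads, whose columns sum to between 901563 and 1159657, per the file's values. How the authors adjusted it was not given in the sources used here, and neither were the aligner, quantifier, annotation, use of strand or read depth. The submitters' processing notes name mm10 as the build. The table holds no counts, so no count model was used and precision is limited by the number of libraries.

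Where a symbol stood in several rows only the row of highest mean was used, which dropped 6 rows. Values were taken as log2(value + 1), and limma 3.58.1 in R 4.3.3 was fitted, with an intensity trend, to the 14025 genes whose mean reached 1. P-values were adjusted by Benjamini-Hochberg over all of them, with a threshold of 0.05. The fit was tried on simulated data with noise drawn independently for each gene and library. Of 100 genes changed by 1 on the log2 scale 79 passed the adjusted test, and of 100 changed by 2, 96 did. Of the unchanged genes 13 passed. Those data held no library that stood apart, so they do not show how the fit handles labelled knockdown replicate 1. All 43 members passed the filter. Values were given in every library for up to 5 members of each role with the smallest p, for Tfeb, Grn, Lamp1, Lamp2, Ctsd and Ctsk whatever their p, and for Ctss, Smpd1, Manba and Idua, which were added after their values were seen. Up to 3 genes with the smallest p were named from each other lysosome list. Some genes that this rule takes are not reported here. The members, lists and rules were chosen with earlier results of these data known.

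Replicate numbers are shared by the groups, but no label says that they mark paired animals. The alternatives were other pseudocounts, filters and scalings, no intensity trend, a heart muscle score as a covariate, a replicate block, and each library left out in turn. Promoter windows are RefSeq's, in build GRCm38.p6, and gene coordinates are GENCODE M21's.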

Additional observations from a re-analysis of the deposited data

How the results depend on the processing

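No member passed the adjusted test under any of the 16 alternatives. Of the 688 differences of single members under those alternatives, 674 kept their direction. Part of that count was fixed in advance. The other filters, the fit without an intensity trend and the replicate block leave every fitted difference unchanged, so no direction could turn under them. The median log2 difference of the members was between -0.49 and -0.22 when 1 library was left out, and -0.21 when the heart muscle score was added to the fit. The number with a lower mean was between 37 and 39 of 43 when 1 library was left out. The number lower at an unadjusted p under 0.05, 17 in the fit reported, was between 3 and 25 when 1 library was left out. Leaving out wild-type replicate 1 gave 3, leaving out wild-type replicate 3 gave 7, and so did leaving out labelled knockdown replicate 1. Adding the heart muscle score gave 3, and the replicate block (replicate number as a factor) gave 10. Over all genes the count, 919 in the fit reported, was between 334 and 1230 when 1 library was left out. It was 334 without wild-type replicate 1, 403 without wild-type replicate 3 and 546 without labelled knockdown replicate 1. With the heart muscle score it was 354, and with the replicate block 764. The replicate block changed no call by the adjusted test. The deviations of same-numbered libraries from their group means correlated at 0.056, 0.061 and 0.143. Those of differently numbered libraries correlated at -0.109 to 0.060. These values do not settle whether the libraries were paired. The numbers were not taken as pairs because no label says that they are. Mcoln1 alone passed that unadjusted p as higher. It did so when mitochondrially encoded genes were left out (1 of 43, beside 1550 of 14641 genes) or without wild-type replicate 2 (1 of 43, range 0 to 1, beside 1182 of 14023 genes). Members lower without overlap numbered 26 of 43 when each library was rescaled to an equal sum, and between 17 and 28 when 1 library was left out. Over all genes the count rose as well, from 1385 of 14025 to 2403 of 14087 after rescaling. With 1 library left out it was between 1658 and 2577. Leaving a library out cannot make separated groups overlap, so the members' count could not fall below 17 there. The count over all genes could fall there only through the filter on mean level. That rescaling moved the median of all genes to -0.13 and that of the members to -0.52. The share of lower calls among all genes at that unadjusted p was 44.2% in the fit reported, 75.3% after that rescaling, 29.3% without mitochondrially encoded genes and 30.9% with the heart muscle score.

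The direction of 6 members turned under at least 1 alternative. Smpd1 was at -0.093 after rescaling to an equal sum, at -0.23 with the heart muscle score and between -0.13 and 0.24 with 1 library left out. Ids was at 0.024 without mitochondrially encoded genes and between -0.10 and 0.064 with 1 library left out. With the heart muscle score Cln3 was at 0.25 and Tpp1 at 0.035, and with 1 library left out they lay between -0.21 and 0.18 and between -0.23 and 0.011. Ctsf lay between -0.20 and 0.0069 and Ctso between -0.17 and 0.018 with 1 library left out. The cause was not tested for any of these. The lowest member, Sgsh, was listed at 4.81 to 10.8 while the table's low values are spaced by 0.889 to 1.163 depending on the library, so rounding limits the precision of its difference.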
